A study of Mus musculus with 6 samples.

Results

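Semaphorins, plexins, ephrins, Eph receptors, Slits, Robo receptors, netrins and Unc5 receptors are the families of guidance molecules first known from growing axons, and many of them also steer endothelial cells. Semaphorins signal through plexins, some of them with neuropilins as co-receptors. Ephrins are bound to the membrane and signal in both directions when they meet an Eph receptor on a neighbouring cell, and the pair of ephrin-B2 and EphB4 marks arterial and venous endothelium. Slits bind Robo receptors, and netrins bind receptors of the Unc5 and Dcc families. The 64 genes described here were selected by name, as the rows of the deposited expression table whose symbols fall in these families from 29955 names in all; 2 further matching names, which the rule leaves out, are not analysed here. They were 19 semaphorins, 8 plexins, 8 ephrins, 14 Eph receptors, 3 Slits, 4 Robo genes, 4 netrins and 4 Unc5 genes. Of these, 26 had a mean of at least 1 FPKM (fragments per kilobase of transcript, scaled to the mapped fragments of the library) over all libraries and entered the test, among 11816 such genes.

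The cells were MS-1, 1 immortalised endothelial line made from mouse pancreatic islets, and all 6 libraries came from this line. Each culture was transfected with a locked nucleic acid inhibitor directed at miR-31, at miR-27 or at no microRNA (the negative control). Each was then kept for 72 h with 1 ng/ml TGF-β2 or without it, so that there was 1 library for each of the 6 conditions and no replicate of any. The design compares cells with and without TGF-β2, a ligand that moves endothelial cells toward a mesenchymal state, and asks how the inhibitors alter that change. The 3 transfections stand in for replicates of the TGF-β2 comparison, and nothing in the labels says whether they were separate experiments, so its p-values describe no more than how far these libraries scatter, which may be technical. The depth of the libraries is unknown, because the table gives no counts.

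Of 12 endothelial markers, 11 had a mean of at least 1 FPKM. Their summed level was 1855 to 1931 FPKM in the libraries with TGF-β2 and 1810 to 1939 FPKM in those without it, and Cldn5 stayed under 0.1 FPKM in every library. Pecam1 was the largest part of that sum, and single markers moved apart within it. Vwf had 17.2 to 23.0 FPKM with TGF-β2 against 0.372 to 0.426 FPKM without it, and Emcn 382 to 395 against 219 to 230 FPKM. Kdr had 35.3 to 37.2 FPKM with TGF-β2 against 60.8 to 68.8 FPKM without it. Markers of leukocytes summed to at most 1.21 FPKM with TGF-β2 and 0.440 FPKM without it, those of pancreas to at most 0.0329 and 0.0264 FPKM. Mural and fibroblast markers summed to 2.76 to 3.37 FPKM with TGF-β2 and 0.677 to 0.885 FPKM without it, nearly all of it Pdgfrb. Epithelial markers summed to 12.9 to 16.6 FPKM with TGF-β2 and 38.7 to 54.5 FPKM without it, mostly Krt18, while Epcam was listed at 0 throughout. Neuronal markers summed to 8.84 to 10.7 FPKM with TGF-β2 and 11.0 to 11.2 FPKM without it, nearly all of it Tubb3, and the other 3 in the table lay under 0.1 FPKM. The part of these markers in the results was not tested. The TGF-β2 library of the miR-31 transfection stood apart in stress genes: Ddit3 reached 298 FPKM there, against 19.6 and 39.8 FPKM with TGF-β2 in the negative-control and miR-27 transfections, a gene named after its values were seen. Each call with TGF-β2 was therefore also computed without it.

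**Figure D1:**
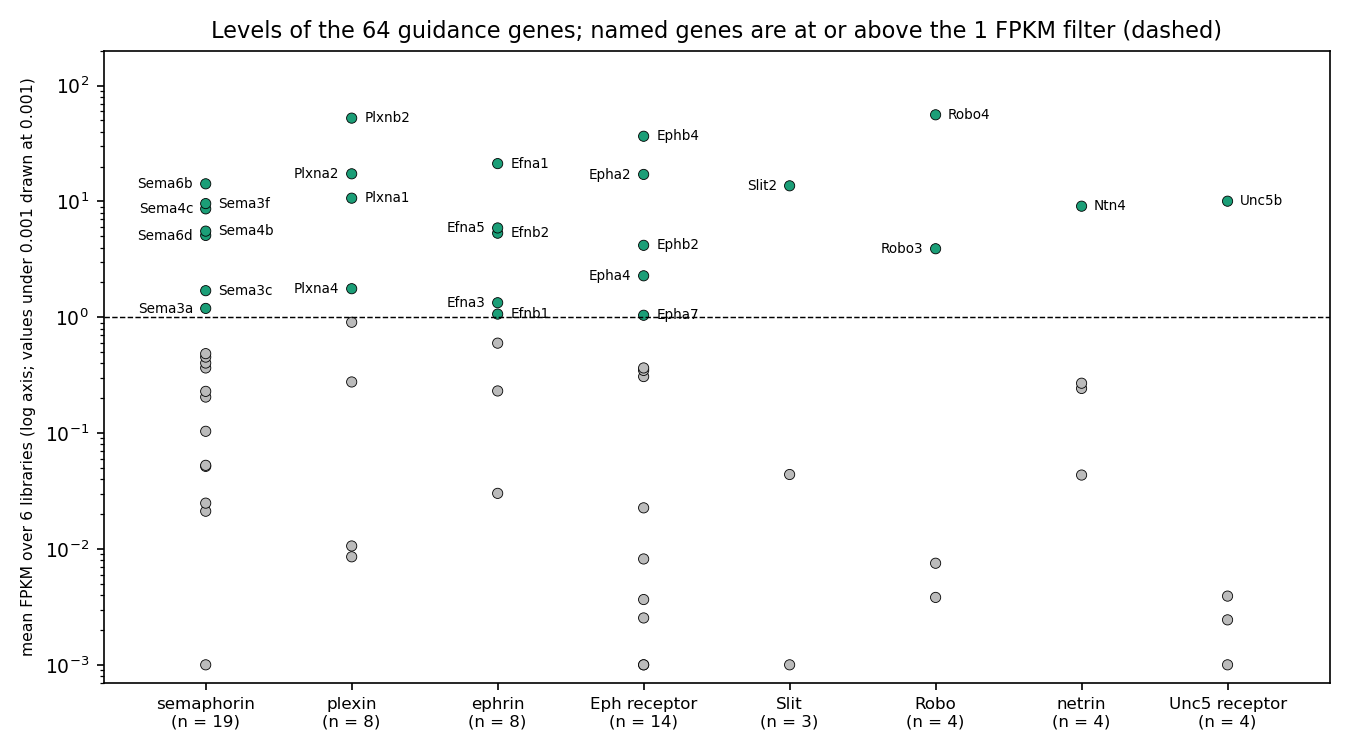
Mean FPKM of each of the 64 guidance genes over the 6 libraries, by family, on a log axis. Green points, named, are the 26 genes at or above the 1 FPKM filter (dashed line), and grey points are the other 38, with values under 0.001 drawn at 0.001. A single Slit, netrin and Unc5 gene lay above the filter, against 7 of 19 semaphorins.

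The order of the levels put receptors at the top. The endothelial Robo4 averaged 56.0 FPKM over the 6 libraries (43.8 to 68.8) and Plxnb2, a receptor of class 4 semaphorins, 52.4 FPKM (46.1 to 58.5), with ranges that overlap. The venous receptor Ephb4 followed at 36.6 FPKM (25.4 to 49.4), and then the ephrin Efna1 at 21.2 FPKM (19.7 to 23.2). Plxna2, Epha2, Sema6b, Slit2, Plxna1 and Unc5b lay between 17.3 and 10.1 FPKM on average, and their ranges over the libraries overlap one another. In all, 10 members averaged at least 10 FPKM, 16 lay between 1 and 10, 16 between 0.1 and 1, and 22 under 0.1 FPKM. Most of the families were thus carried by few genes: Slit2 was the only Slit, Ntn4 the only netrin and Unc5b the only Unc5 gene above the filter, and the neuronal Robo1 and Robo2, listed at 1 shared place, did not exceed 0.0163 FPKM. Epha10 and Unc5a were listed at 0 in every library.

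With TGF-β2, 9 of the 26 tested members rose and 10 fell at an adjusted p under 0.05 (limma on log2(FPKM + 1), additive model of inhibitor and TGF-β2, adjusted over all genes tested), that is 19 in all. Over all 11816 genes tested the same rule called 50.2%, with 22.7% higher and 27.5% lower. With the libraries rescaled to one upper quartile the larger direction over all genes turned, at 3183 higher and 2717 lower against 2677 and 3249 as deposited, while 10 members rose and 10 fell. The median size of the difference, regardless of sign, was 0.40 for the members and 0.17 over all genes tested, on the log2(FPKM + 1) scale. A difference of at least 0.5 in size was called in 11 members, against 13.6% of all genes tested, and one of at least 1 in 6 members, against 4.33%. Of those 11, 4 rose, against 6.86% of all genes tested, and 7 fell, against 6.78%. The 4 include Efnb1, which passed the filter only through the libraries with TGF-β2 and adds nothing to that count. The signed median was -0.05 for the members and -0.02 for all genes. At a difference of at least 1 there was 1 rise and there were 5 falls. The share of all genes in each direction at that size was not computed, so these counts support no direction. In 20 of the 26 members the 3 libraries with TGF-β2 did not overlap the 3 without it, beside 58.4% of all genes tested. With that miR-31 library left out, 11 members rose and 10 fell, beside 2815 and 3272 of all genes tested. Without a negative-control library 6 members rose and 10 fell, beside 1640 and 1926 of all genes tested. Without a miR-27 library 5 members rose and 9 fell, beside 1827 and 2090 of all genes tested.

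**Figure D2:**
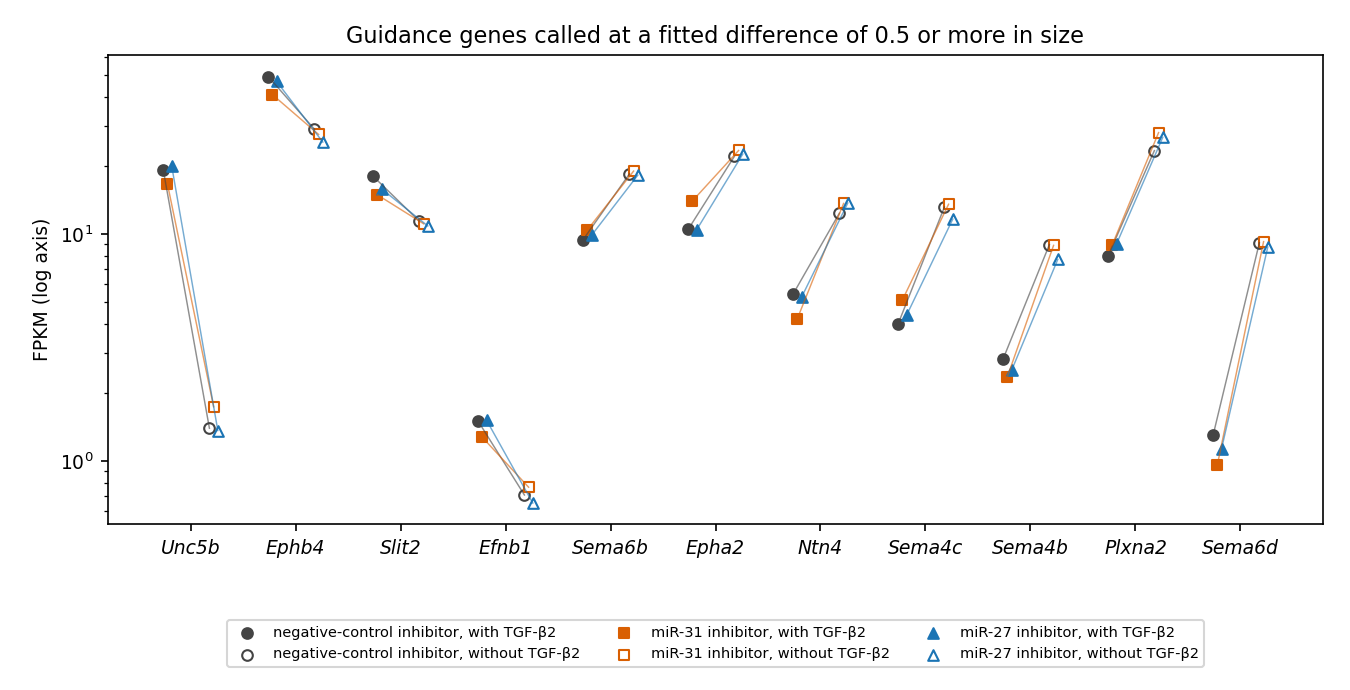
FPKM (log axis) of the 11 guidance genes called with a fitted difference of at least 0.5 in size, ordered from the largest rise to the largest fall. Filled symbols are libraries with TGF-β2 and open symbols those without it, joined within a transfection. For every gene shown the 3 filled symbols lie on one side of the 3 open ones.

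The promoter windows of the members that rose or fell most show the sequence upstream of the genes on which the TGF-β2 comparison turns. They are, among members with a single start in RefSeq, the pair with the largest called rises and the pair with the largest called falls, from 250 bases before to 50 after the start, on build GRCm38.p6, which is not the build of the expression table. Capitals mark matches, on either strand, to the Smad-type motif CAGAC, the E-box CACCTG and the AP-1 motif TGACTCA.
Unc5b (chr10:60831532-60831831, minus strand): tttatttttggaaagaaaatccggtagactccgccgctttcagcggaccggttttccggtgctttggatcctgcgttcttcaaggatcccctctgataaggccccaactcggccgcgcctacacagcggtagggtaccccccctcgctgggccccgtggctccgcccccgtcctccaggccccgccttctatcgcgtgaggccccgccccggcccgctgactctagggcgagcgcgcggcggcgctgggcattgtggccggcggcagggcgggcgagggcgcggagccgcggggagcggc
Ephb4 (chr5:137349859-137350158, plus strand): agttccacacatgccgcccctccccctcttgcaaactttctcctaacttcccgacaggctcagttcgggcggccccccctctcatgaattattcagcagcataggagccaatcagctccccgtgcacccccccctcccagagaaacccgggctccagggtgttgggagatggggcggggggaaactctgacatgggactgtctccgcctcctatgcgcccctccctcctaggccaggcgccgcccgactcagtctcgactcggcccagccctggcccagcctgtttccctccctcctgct
Plxna2 (chr1:194619579-194619878, plus strand): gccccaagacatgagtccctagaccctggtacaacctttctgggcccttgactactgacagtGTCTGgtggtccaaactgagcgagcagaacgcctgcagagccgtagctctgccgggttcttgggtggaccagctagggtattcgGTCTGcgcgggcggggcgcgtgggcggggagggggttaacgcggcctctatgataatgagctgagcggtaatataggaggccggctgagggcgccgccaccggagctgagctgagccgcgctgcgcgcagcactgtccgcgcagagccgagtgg
Ntn4 (chr10:93640799-93641098, plus strand): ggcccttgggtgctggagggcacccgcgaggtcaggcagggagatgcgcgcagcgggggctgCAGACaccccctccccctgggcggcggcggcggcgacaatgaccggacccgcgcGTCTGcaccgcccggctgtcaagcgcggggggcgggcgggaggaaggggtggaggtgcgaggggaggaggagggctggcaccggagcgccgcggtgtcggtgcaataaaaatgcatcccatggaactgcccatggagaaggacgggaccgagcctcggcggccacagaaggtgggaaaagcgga
No match fell in the windows of Unc5b and Ephb4, and CAGAC matched 2 times each in those of Plxna2 and Ntn4. The other called members with a single start did not divide that way. Among those that rose, CAGAC matched 3 times in Epha4, 2 in Slit2, 1 each in Efnb1 and Efnb2, and not in Efna5. Among those that fell it matched 1 time in Robo4 and not in Epha2, Sema3a or Sema3c. Of the 26 tested members, 23 had a promoter in the RefSeq table. CAGAC was in 17 of their 31 windows, or 54.8%, beside 46.4% of the 9920 windows of genes tested and 49.6% of all 32851 windows. CACCTG was in 19.4% of the members' windows and 16.2% of those of genes tested, and TGACTCA in 6.45% and 3.74%. Such matches describe these letters in these windows only.

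The largest change among the members was in a netrin receptor. Unc5b, which encodes a repulsive netrin receptor of endothelial tip cells (mm9 chr10:60225343-60294329), had 19.2, 16.6 and 20.0 FPKM with TGF-β2 (negative-control inhibitor first, then miR-31, then miR-27), against 1.39, 1.73 and 1.36 FPKM without it. The groups lie far apart, and the mean with TGF-β2 was 12.5 times the mean without it. The fitted rise was 2.97 ± 0.10 (SE of the fit; adjusted p = 7.58e-05). Its 3 sister genes did not exceed 0.00943 FPKM in any library. Ntn4, a laminin-related netrin of basement membranes (mm9 chr10:93103794-93208717), went the other way. It had 5.44, 4.24 and 5.27 FPKM with TGF-β2, against 12.3, 13.6 and 13.7 FPKM without it, in the same order of inhibitors, which holds for all values by library. Every library with TGF-β2 was below every one without it, at 37.7% of their mean, and the fitted fall was -1.25 ± 0.09 (adjusted p = 5.51e-04). Ntn1, the netrin best known as an Unc5b ligand, was under the filter, at 0.347, 0.374 and 0.411 FPKM with TGF-β2 against 0.188, 0.146 and 0.152 FPKM without it. Unc5b thus rose while Ntn4 fell. The values of Ntn1, which was not tested, were higher in every library with TGF-β2 than in any without it.

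Of the 7 semaphorins tested, 6 fell and 1 rose, beside 27.5% lower and 22.7% higher among all genes tested. Of the 12 below the filter, Sema3b, Sema3d, Sema4d, Sema4g and Sema6c lay wholly above with TGF-β2, Sema4a, Sema4f and Sema7a wholly below, and the other 4 overlapped. The share of all genes below the filter that lie apart was not computed, so this division supports no direction. Sema4a and Sema4d stayed under 0.1 FPKM in every library. The summed level of all 19 was 33.2, 33.5 and 32.5 FPKM with TGF-β2 against 65.0, 65.3 and 60.5 FPKM without it. Sema6d, a transmembrane semaphorin that binds plexin A1 (mm9 chr2:123915705-124493506), fell furthest, with 1.30, 0.961 and 1.13 FPKM with TGF-β2 against 9.15, 9.25 and 8.75 FPKM without it. Its mean was 12.5% of that without TGF-β2, a fitted fall of -2.24 ± 0.06 (adjusted p = 4.42e-05). Both tested class 4 semaphorins, membrane proteins that signal through B-type plexins, fell as well. Sema4b (mm9 chr7:87331727-87371410) had 2.82, 2.35 and 2.50 FPKM with TGF-β2 against 8.97, 8.91 and 7.72 FPKM without it (-1.42 ± 0.06, adjusted p = 1.39e-04). Sema4c (mm9 chr1:36605487-36615226) had 4.02, 5.12 and 4.38 FPKM with TGF-β2 against 13.1, 13.5 and 11.6 FPKM without it (-1.32 ± 0.07, adjusted p = 2.13e-04). For all 3 genes the groups were well separated, at no more than 5.12 FPKM in any library with TGF-β2 and at least 7.72 FPKM in any without it. Sema6b, a further transmembrane semaphorin (mm9 chr17:56262508-56279766), had 9.45, 10.4 and 9.87 FPKM with TGF-β2 against 18.4, 18.9 and 18.2 FPKM without it (-0.84 ± 0.04, adjusted p = 2.13e-04).

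The 3 tested class 3 semaphorins, which are secreted and act through neuropilins and A-type plexins, had fitted differences of at most 0.49 in size. The log2(FPKM + 1) scale understates changes of low genes. The mean of Sema3c with TGF-β2 was 57.7% of that without it, beside 53.6% for Sema6b. Sema3c had 1.65, 0.958 and 1.12 FPKM with TGF-β2 against 2.66, 1.72 and 2.08 FPKM without it, a fall of -0.49 ± 0.04 (adjusted p = 9.28e-04), with the groups narrowly apart. Sema3a fell by 0.21 ± 0.05 (adjusted p = 0.0233), to 0.989 to 1.11 FPKM with TGF-β2 against 1.27 to 1.42 FPKM without it. Sema3f, the most abundant of the 3, was the only tested semaphorin that rose, by 0.17 ± 0.05 (adjusted p = 0.0354), at 10.0 to 10.4 FPKM with TGF-β2 against 8.41 to 9.27 FPKM without it. With either library of the miR-27 transfection left out the calls of Sema3a and Sema3f were lost (adjusted p = 0.123 and 0.186), and that of Sema3f also without a negative-control library (adjusted p = 0.137).

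Among the plexins, the receptors that semaphorins bind, 1 of the 4 tested changed, beside 50.2% called among all genes tested. Plxna2 (mm9 chr1:196446023-196643062) had 8.02, 8.98 and 9.04 FPKM with TGF-β2 against 23.3, 28.0 and 26.7 FPKM without it. It was at 33.4% of the mean without TGF-β2, with no overlap, and fell by 1.48 ± 0.04 (adjusted p = 5.35e-05). Plxna1, the other abundant A-type plexin, had 10.3, 8.71 and 11.3 FPKM with TGF-β2 against 10.8, 11.7 and 11.2 FPKM without it, and its groups overlap (-0.15 ± 0.09, adjusted p = 0.216). Plxnb2, with 53.7, 53.3 and 58.5 FPKM with TGF-β2 against 46.1, 50.9 and 51.9 FPKM without it, narrowly missed the threshold (0.15 ± 0.05, adjusted p = 0.0527). Without either library of the miR-31 transfection Plxnb2 passed (0.19, adjusted p = 0.0219), and so did Plxna4 (0.27, adjusted p = 0.0129), whose difference over all 6 libraries was 0.16 (adjusted p = 0.172). Plxna4 shares its listed place with a clone name, AK046388, at 6.46 to 9.16 FPKM over the libraries, above the 1.29 to 2.11 FPKM of Plxna4 itself, and how fragments were divided between these names is not known.

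Ephrins are the membrane-bound ligands of Eph receptors. Of the 5 tested, 4 rose and none fell, beside 22.7% higher and 27.5% lower among all genes tested. Efnb1 (mm9 chrX:96331469-96344330) had 1.49, 1.27 and 1.51 FPKM with TGF-β2 against 0.707, 0.765 and 0.652 FPKM without it (0.50 ± 0.06, adjusted p = 0.00274). It is the only tested member whose mean without TGF-β2, 0.708 FPKM, was under 1, so it passed the filter only through the libraries with TGF-β2 and its rise adds nothing to that count. Among the 25 members with a mean of at least 1 FPKM in both groups, 8 rose and 10 fell. The share of all genes called under that stricter filter was not computed. Efna3 rose by 0.31 ± 0.04 (adjusted p = 0.00403), with 1.37 to 1.87 FPKM with TGF-β2 against 0.842 to 1.30 FPKM without it. A clone name at the same listed place, AK140090, moved the other way, at 0.60, 0.70 and 0.643 FPKM with TGF-β2 against 1.08, 0.994 and 0.896 FPKM without it, and the division of fragments between the names was not tested. Efna5 rose by 0.30 ± 0.09 (adjusted p = 0.0394), by 0.10 under inhibition of miR-31, by 0.29 under inhibition of miR-27 and by 0.52 in the negative control. The arterial marker Efnb2 rose by 0.19 ± 0.04 (adjusted p = 0.0149), with 5.52 to 5.84 FPKM with TGF-β2 against 4.75 to 5.09 FPKM without it. Efna5 and Efnb2 lost their calls with a library of the negative-control or the miR-27 transfection left out, where the adjusted p was at most 0.131 and 0.0852. The most abundant ephrin, Efna1, had 19.7, 22.2 and 21.4 FPKM with TGF-β2 against 19.7, 23.2 and 21.1 FPKM without it, a difference of -0.02 ± 0.04 (adjusted p = 0.770).

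Eph receptors divided between a rise of Ephb4 and a fall of Epha2. Ephb4, the receptor of ephrin-B2 on venous endothelium (mm9 chr5:137791337-137918292), had 49.4, 41.1 and 47.0 FPKM with TGF-β2 against 29.0, 27.4 and 25.4 FPKM without it. All 3 libraries with TGF-β2 were above all those without it, by 0.73 ± 0.07 (adjusted p = 0.00124). Epha2, a receptor of A-type ephrins (mm9 chr4:140857155-140885293), had 10.5, 14.0 and 10.4 FPKM with TGF-β2 against 22.0, 23.3 and 22.5 FPKM without it, a fall of -0.91 ± 0.08 (adjusted p = 0.0010). Its level with TGF-β2 was highest in the miR-31 transfection. Epha4, a receptor of both ephrin classes, rose by 0.28 ± 0.06 (adjusted p = 0.0185), at 2.42 to 2.76 FPKM with TGF-β2 against 1.87 to 2.12 FPKM without it. That call was lost with either miR-27 library left out (adjusted p = 0.0829). Ephb2 and Epha7 had overlapping groups, with differences of -0.09 ± 0.08 and -0.03 ± 0.05 (adjusted p = 0.366 and 0.604).

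Among the Slit and Robo genes, Slit2 rose and the endothelial Robo4 fell. Whether the 2 act as ligand and receptor was not tested, and Robo1 and Robo2 did not exceed 0.0163 FPKM in any library. Slit2 (mm9 chr5:48374394-48697017) had 17.9, 14.9 and 15.8 FPKM with TGF-β2 against 11.4, 11.1 and 10.8 FPKM without it, a rise of 0.50 ± 0.06 (adjusted p = 0.00221). Robo4, a vascular Robo that has been reported to bind Unc5b (mm9 chr9:37209631-37221607), had 43.8, 50.5 and 44.7 FPKM with TGF-β2 against 62.9, 68.8 and 65.2 FPKM without it. The groups do not overlap, and the fall was -0.49 ± 0.04 (adjusted p = 9.87e-04). Its neighbour on the chromosome, Robo3, had 3.78, 3.93 and 3.63 FPKM with TGF-β2 against 4.0, 4.23 and 3.88 FPKM without it, with a difference of -0.07 ± 0.04 (adjusted p = 0.171). As everywhere in bulk RNA, less RNA per cell and fewer cells with that RNA cannot be told apart.

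**Figure D3:**
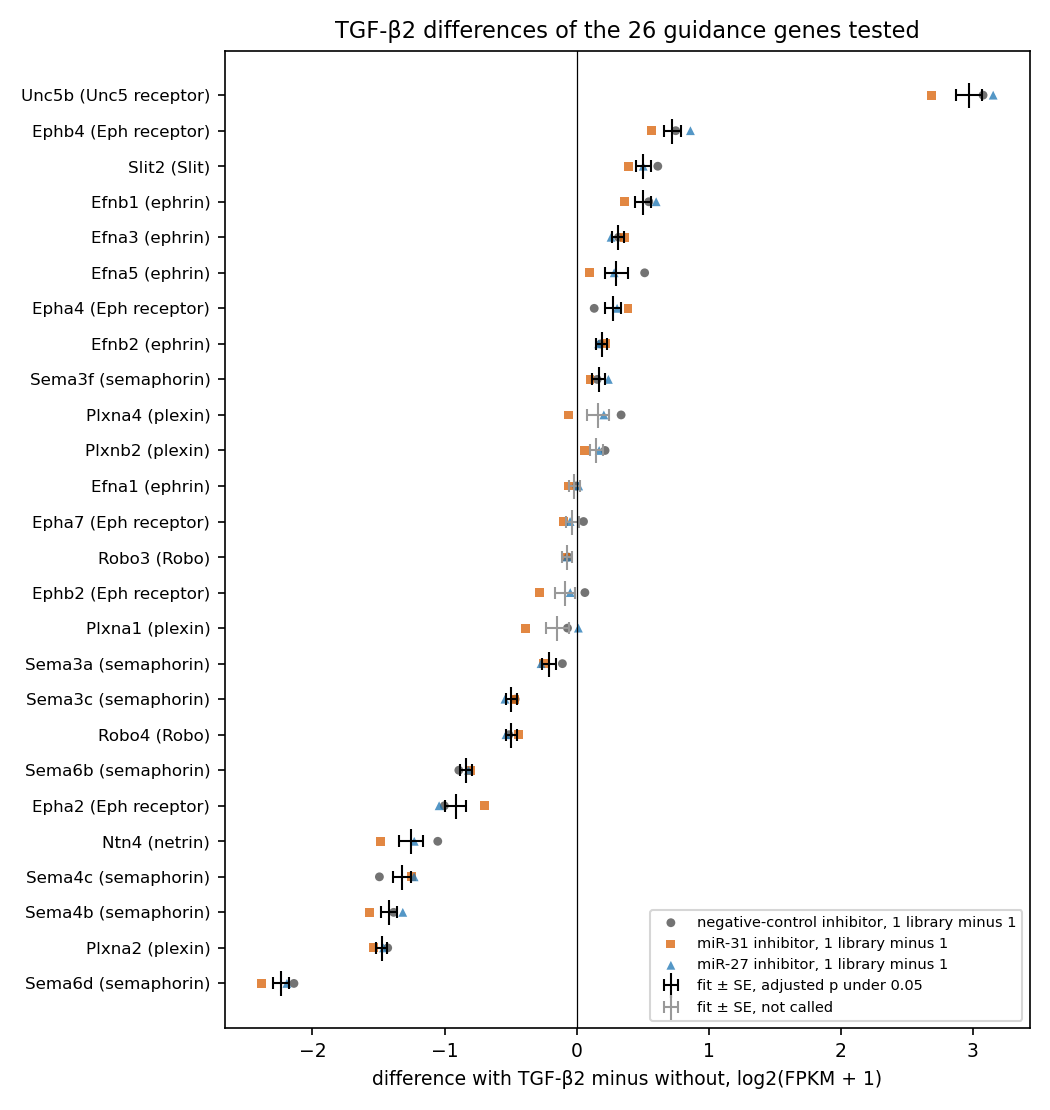
Difference with TGF-β2 minus without it on the log2(FPKM + 1) scale for the 26 tested guidance genes, ordered by size. Coloured symbols are the responses of single transfections (1 library minus 1), and bars are the fitted difference ± SE, in black where the adjusted p was under 0.05 and in grey otherwise. The symbols of a gene lie close together beside the distance between Unc5b at 2.97 and Sema6d at -2.24.

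Below the filter were 38 members, of which 22 stayed under 0.1 FPKM and 2 reached 1 FPKM in some library. Those that reached 1 FPKM were Plxna3, an A-type plexin, at 0.918, 0.716 and 0.932 FPKM with TGF-β2 against 0.967, 1.03 and 0.875 FPKM without it, and Efna4, an A-type ephrin, at 1.05, 0.679 and 0.882 FPKM with TGF-β2 against 0.276, 0.374 and 0.329 FPKM without it. With the filter lowered to a mean of 0.3 FPKM, 9 of these members were tested, 5 rose and 1 fell, beside 47.0% called among the 13542 genes then tested. Of these 6, Ephb3, Ephb6 and Sema7a averaged under 0.3 FPKM in one group, so they passed that filter only through the group where they are high, and neither their calls nor that count support a direction. Efna4 (0.49, adjusted p = 0.00822) rose, as did Sema3b (0.24) and Sema4g (0.19), while the fitted differences of the receptor Ephb3 and the kinase-inactive receptor Ephb6 were 0.48 and 0.16. Sema7a, a semaphorin held in the membrane by a lipid anchor, had a fitted difference of -0.58, with 0.0916, 0.0876 and 0.108 FPKM with TGF-β2 against 0.537, 0.718 and 0.651 FPKM without it. The other 3 tested there were not called: Epha1 (-0.02), Plxna3 (-0.08) and Sema3g (0.03). The last 7 members, Efnb3, Ntn1, Ntn3, Plxnc1, Sema3d, Sema4f and Sema6c, averaged 0.104 to 0.277 FPKM and were not tested. Among them Sema3d had 0.449, 0.356 and 0.288 FPKM with TGF-β2 against 0.0409, 0.0404 and 0.0557 FPKM without it, and was named after its values were seen.

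Of the 62 co-receptors, further ligands and intracellular effectors listed beside these families, 43 were tested, and 12 rose and 16 fell, again beside 50.2% of all genes tested. Of the neuropilins, the co-receptors of class 3 semaphorins, Nrp1 rose by 0.97 (adjusted p = 0.00126), to a mean of 9.06 FPKM with TGF-β2 against 4.06 FPKM without it. Nrp2 fell by 0.36 (adjusted p = 0.00298), at a mean of 65.3 FPKM with TGF-β2 and 83.9 FPKM without it, and its groups overlap. The netrin and repulsive guidance receptor gene Neo1 fell by 0.46 (adjusted p = 0.0110), while Dcc did not exceed a mean of 0.00488 FPKM. Flrt2, which encodes an Unc5 ligand of the membrane, rose by 1.16 (adjusted p = 2.98e-04). Downstream of plexins, the oxidoreductase genes Mical1 and Mical2 rose by 0.59 and 1.54 while Mical3 was not called (0.03). Of the Rnd genes on the list, Rnd1 had a fitted difference of -1.19, at a mean of 27.5 FPKM with TGF-β2 against 62.4 FPKM without it. Those of Rnd2 and Rnd3 were -0.18 and 1.27, and all 3 were called. Of the collapsin response genes, Crmp1 fell by 0.29, Dpysl2 was not called (-0.12) and Dpysl3 rose by 1.03, at a mean of 108 FPKM with TGF-β2 against 52.3 FPKM without it. Ngef, which encodes an exchange factor that acts downstream of EphA receptors, had a fitted difference of -2.26, at a mean of 0.130 FPKM with TGF-β2 against 4.41 FPKM without it, and passed the filter only through the libraries without TGF-β2.

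With the miR-31 inhibitor no member was called against the negative control (limma, adjusted over all genes tested), nor was any with the miR-27 inhibitor, where the same rule called 0.0339% and 0.00846% of all genes tested. At an unadjusted p under 0.05 there were 5 such members for miR-31, against 18.1% of all genes tested, and 3 for miR-27, against 12.4%. No difference between single libraries reached 1 on the log2(FPKM + 1) scale in any member. All such differences lay between -0.44 and 0.38 for the miR-31 inhibitor and between -0.32 and 0.24 for the miR-27 inhibitor. In all genes tested a difference of at least 1 was seen in 0.686% with TGF-β2 and 0.262% without it for the miR-31 inhibitor, and in 0.195% and 0.296% for the miR-27 inhibitor. Sema3c had the lowest value of each of these 4 comparisons. Its level was 0.958 FPKM under inhibition of miR-31 and 1.12 FPKM under inhibition of miR-27, against 1.65 FPKM with the negative control, all with TGF-β2. Without TGF-β2 it was 1.72 and 2.08 FPKM with the miR-31 and miR-27 inhibitors against 2.66 FPKM with the negative control. The fitted differences were -0.43 ± 0.05 and -0.28 ± 0.05 (adjusted p = 0.211 and 0.295), and both rest on the same 2 control libraries. With the miR-31 library that lacked TGF-β2 left out, the miR-31 difference was -0.42 for Sema3c and 0.39 for Epha2. That fit rests on 1 miR-31 library, the one with the high Ddit3 level, so it supports no call.

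**Figure D4:**
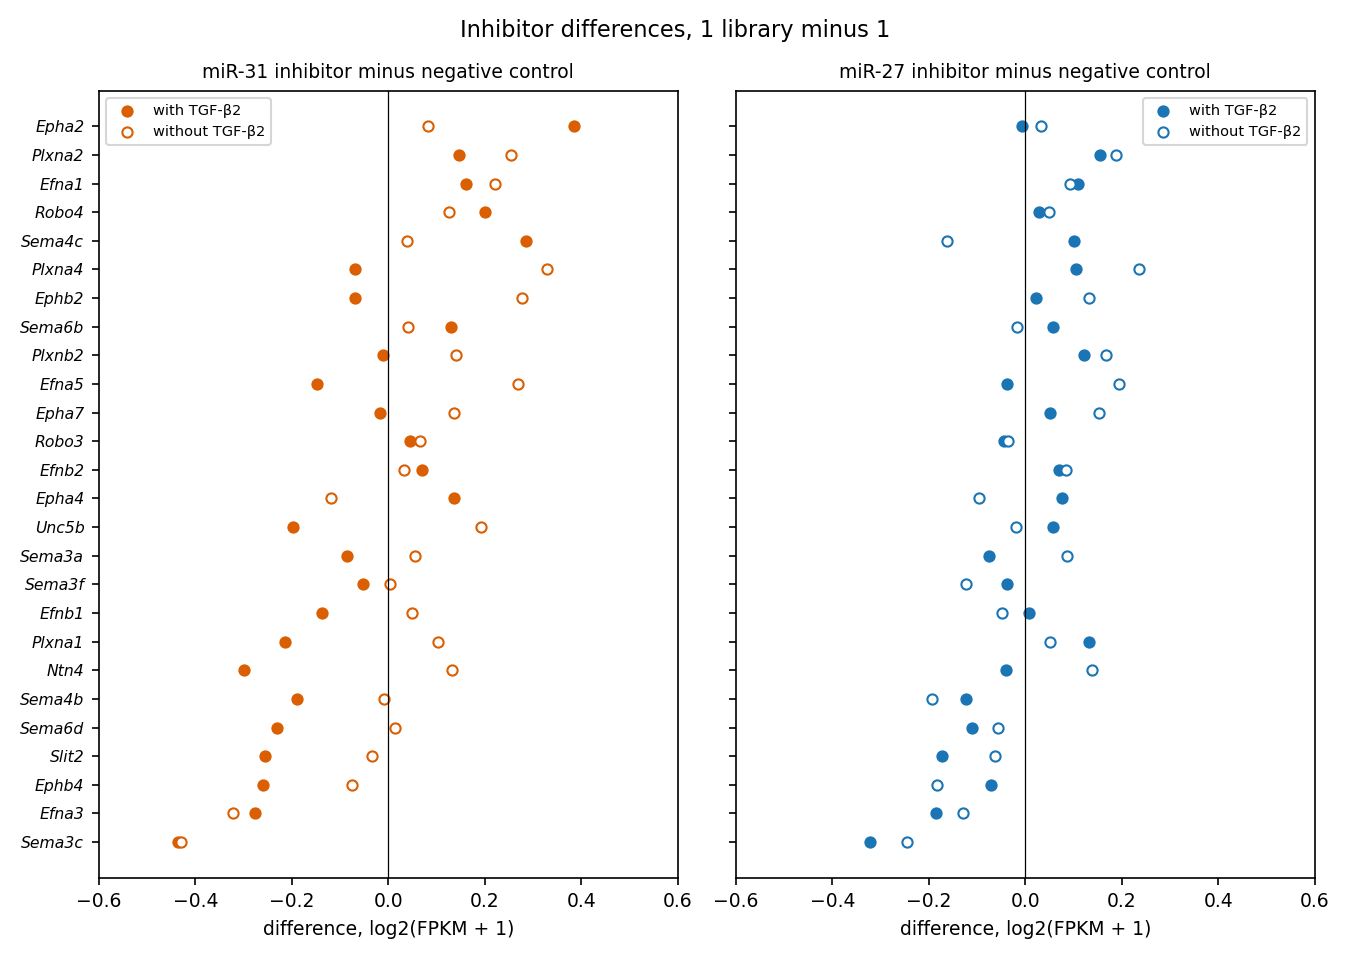
Difference of the miR-31 inhibitor (left) and of the miR-27 inhibitor (right) minus the negative control, each 1 library minus 1, on the log2(FPKM + 1) scale, for the 26 tested guidance genes. Filled points are libraries with TGF-β2 and open points those without it, and genes are ordered by the fitted miR-31 difference. Sema3c stands lowest in both panels, and the panels share their control libraries.

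The mature microRNAs named by the inhibitors are given to show their seeds (bases 2 to 8, in capitals), which decide the sites that were searched. The labels do not give the arm or the family member inhibited, so these are the arms commonly studied, from RefSeq on GRCm38.p6.
mmu-miR-31-5p: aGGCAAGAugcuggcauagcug
mmu-miR-27a-3p: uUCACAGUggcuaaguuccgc
mmu-miR-27b-3p: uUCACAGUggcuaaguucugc
The pair of miR-27 forms shares its seed. A match to the miR-31 seed was in the longest annotated 3′ UTR (GENCODE vM21) of 4 of the 26 members, or 15.4%, beside 13.2% of the 9540 genes tested that had one. For the miR-27 seed it was 5 members, or 19.2%, beside 17.8%. Plxna2, Plxna4 and Efnb2 had matches to both. Plxna2 had the highest fitted differences among members with a site, and the first site for each seed is shown for it, with the seed match in capitals.
Plxna2, miR-31 site: gttcagcttgttTCTTGCCtgaatg
Plxna2, miR-27 site: actcatgggcacACTGTGAtcatac
Plxna2 had 8.98 FPKM under inhibition of miR-31 and 9.04 FPKM under inhibition of miR-27, against 8.02 FPKM with the negative control, all with TGF-β2. Without TGF-β2 the levels were 28.0 and 26.7 FPKM with the miR-31 and miR-27 inhibitors against 23.3 FPKM with the negative control. The fitted differences of Plxna2 were 0.20 ± 0.05 and 0.17 ± 0.05, neither of which passed (adjusted p = 0.230 and 0.344), and they share their controls. Over the 4 members with a miR-31 site the median difference with the miR-31 inhibitor was 0.09, and over the 22 without a site it was 0.00277, with ranges of -0.04 to 0.20 and -0.43 to 0.23 that overlap. With the miR-27 inhibitor the medians were 0.08 over the 5 members with a miR-27 site and 0.00603 over the 21 without one, with ranges of -0.08 to 0.17 and -0.28 to 0.14 that overlap as well.

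The TGF-β2 responses of the 3 transfections were close to one another. No member moved by 0.2 or more in opposite directions in any pair of them. The widest gap between single responses was 0.47, for Unc5b, which rose by 2.69 under inhibition of miR-31 and by 3.15 under inhibition of miR-27, beside 3.08 in the negative control. Of the 9 members that rose, 6 had their smallest rise with the miR-31 inhibitor (66.7%), and of the 2677 genes called higher in all 1099 had (41.1%). Over both directions it was 9 of the 19 called members (47.4%), beside 33.0% of all called genes. Efnb1, which passed the filter only through the libraries with TGF-β2, is counted in both the 6 and the 9. Whether the responses differ between transfections was not tested, since each is 1 library minus 1, and the miR-31 library with the high Ddit3 level enters every one of those smallest rises.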

How the data were processed

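Per the labels, libraries were made with a strand-keeping kit after removal of ribosomal RNA and read on a HiSeq. The authors deposited FPKM, 1 column per library, and per the submitters' processing notes used TopHat2 2.0.9, Cufflinks 2.1.1 and the mouse build mm9. Annotation, counting options and use of strand are not given in the sources used here. Of 422 microRNA hairpins, 167 had an end minus start equal to their length, so listed starts were read as counting from 0 and 1 was added. Listed places can be shared by several names. Those printed for Ephb4, Ntn4, Sema4b, Sema4c, Sema6d and Slit2 are shared, so they need not be the place of that gene alone. The other names at these places did not exceed 1.04 FPKM in any library.

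Genes that averaged 1 FPKM or more were fitted on log2(FPKM + 1) with limma 3.58.1 in R 4.3.3, as an additive model of inhibitor and TGF-β2 over all 6 libraries (2 residual degrees of freedom, prior 2.87), 2-sided, with Benjamini-Hochberg adjustment and a threshold of 0.05. The scale understates changes of low genes. The residual spread holds noise together with any dependence of the response on the inhibitor. The fit was tested on simulated data. Every tested member is named, members called at a difference of at least 0.5 are given by library, and exceptions are marked. The members, lists and rules were chosen with earlier results of these data known. Alternatives were other pseudocounts, filters, scaling, moderation options, no inhibitor term, and leaving out each library.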

Additional observations from a re-analysis of the deposited data

How the results depend on the processing

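Leaving out either library of a transfection gives the same TGF-β2 fit with 1 residual degree of freedom. Over these fits between 5 and 11 members rose, and over all genes 1640 to 2815 rose and 1926 to 3272 fell. The lowest member count came without a miR-27 library, and the lowest counts over all genes without a negative-control library. With a 0.3 FPKM filter, where more members were tested, 14 rose and 11 fell, beside 2919 and 3449 of all 13542 genes then tested. These counts include Ephb3, Ephb6 and Sema7a, which passed that filter only through the group where they are high. The counts therefore support no direction. Between 0 and 2 members were called for the miR-31 inhibitor. The calls of Epha2, Ephb4, Efna3, Efnb1, Ntn4, Plxna2, Robo4, Sema3c, Sema4b, Sema4c, Sema6b, Sema6d, Slit2 and Unc5b held in all 13 alternatives, and those of Epha4, Efna5, Efnb2, Sema3a and Sema3f did not. With no filter Epha4, Efna5, Sema3a and Sema3f lost their calls (adjusted p at most 0.143) and Robo3 gained one (-0.07, adjusted p = 0.0344). Plxnb2 passed with trend and robust options (adjusted p = 0.0286) and after rescaling (adjusted p = 0.0244). Uncalled genes near 0 changed sign: Efna1 after rescaling (0.0254), and with a library left out Efna1 (-0.0320 to 0.00725), Ephb2 (-0.165 to 0.00755) and Epha7 (-0.0746 to 0.00177). The cause was not tested. Low members are limited by an unknown depth. Leaving out the inhibitor term, which pairs the libraries of a transfection, changed no member's call.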
